A study of Mus musculus with 2 samples.

Results

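Wnt signalling was described in the newborn mouse adrenal gland through 60 genes that encode its ligands, their processing and receptors, the R-spondin axis, intracellular transducers, secreted inhibitors and feedback targets. The genes were chosen by symbol for their place in the pathway and matched by Ensembl identifier, and all 60 of 60 had a row among the 43346 Ensembl genes measured. Total RNA was sequenced from adrenals of mice of the strain B6NCrl at postnatal day 0, with no mutation or treatment labelled. Each of the 2 libraries came from the 2 adrenals of 1 pup, both pups carry the same number for the pregnant animal, and sex was not collected. Libraries started from 10 ng of RNA, spike-ins included in the preparation, and depth was 41510071 estimated counts for pup 1 and 40800539 for pup 2.

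Wnt proteins are lipid-modified by Porcn, carried to the cell surface by Wls, and bind Frizzled receptors together with the co-receptors Lrp5 and Lrp6. In the canonical branch this stops the destruction of β-catenin, the product of Ctnnb1, which then acts with Tcf and Lef proteins on target genes. Znrf3 and Rnf43 are ubiquitin ligases that remove Frizzled from the surface, and R-spondins bound to Lgr receptors take these ligases away. In the adrenal gland R-spondin 3 is known as a signal of the capsule, the mesenchymal sheath of the gland, and Wnt4 as a product of the zona glomerulosa, the outer steroid-making layer beneath it.

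Both pups belong to 1 group, so the design holds no contrast between conditions. The account therefore covers the level of each gene in the newborn gland and how far the pups lie apart. Since each pup is 1 library, differences between them lack a replicate check and come without p-values. Levels are in TPM, a per-length unit that sums to the same total in every library and can be compared between genes. Differences are log2 ratios of pup 2 over pup 1 from counts scaled by the trimmed mean of M values (TMM), with 95% intervals that cover counting error only. A gene is said to be over 2-fold apart where that ratio passes 1 in size at a mean count of at least 10. Being bulk RNA, the libraries cannot tell fewer cells of a type from less RNA per cell.

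Every step of the canonical pathway had genes above TPM 1 in both glands. Of the 60 genes, 43 reached TPM 1 in both pups (71.7%, beside 60.5% of all protein-coding genes), Fzd9 and Rnf43 reached it in pup 2 only, and 15 stayed below 1 in both. The 15 were 11 ligand genes, Fzd10, Rspo2, Rspo4 and Lgr6. All 7 transducers, 8 secreted inhibitors, 3 targets and both processing genes were above TPM 1 in both pups, against 8 of 19 ligands. By mean TPM the most abundant were, in order, Ctnnb1, Rspo3, Sfrp1, Wls, Tcf7l2 and Wnt4.

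**Figure D1:**
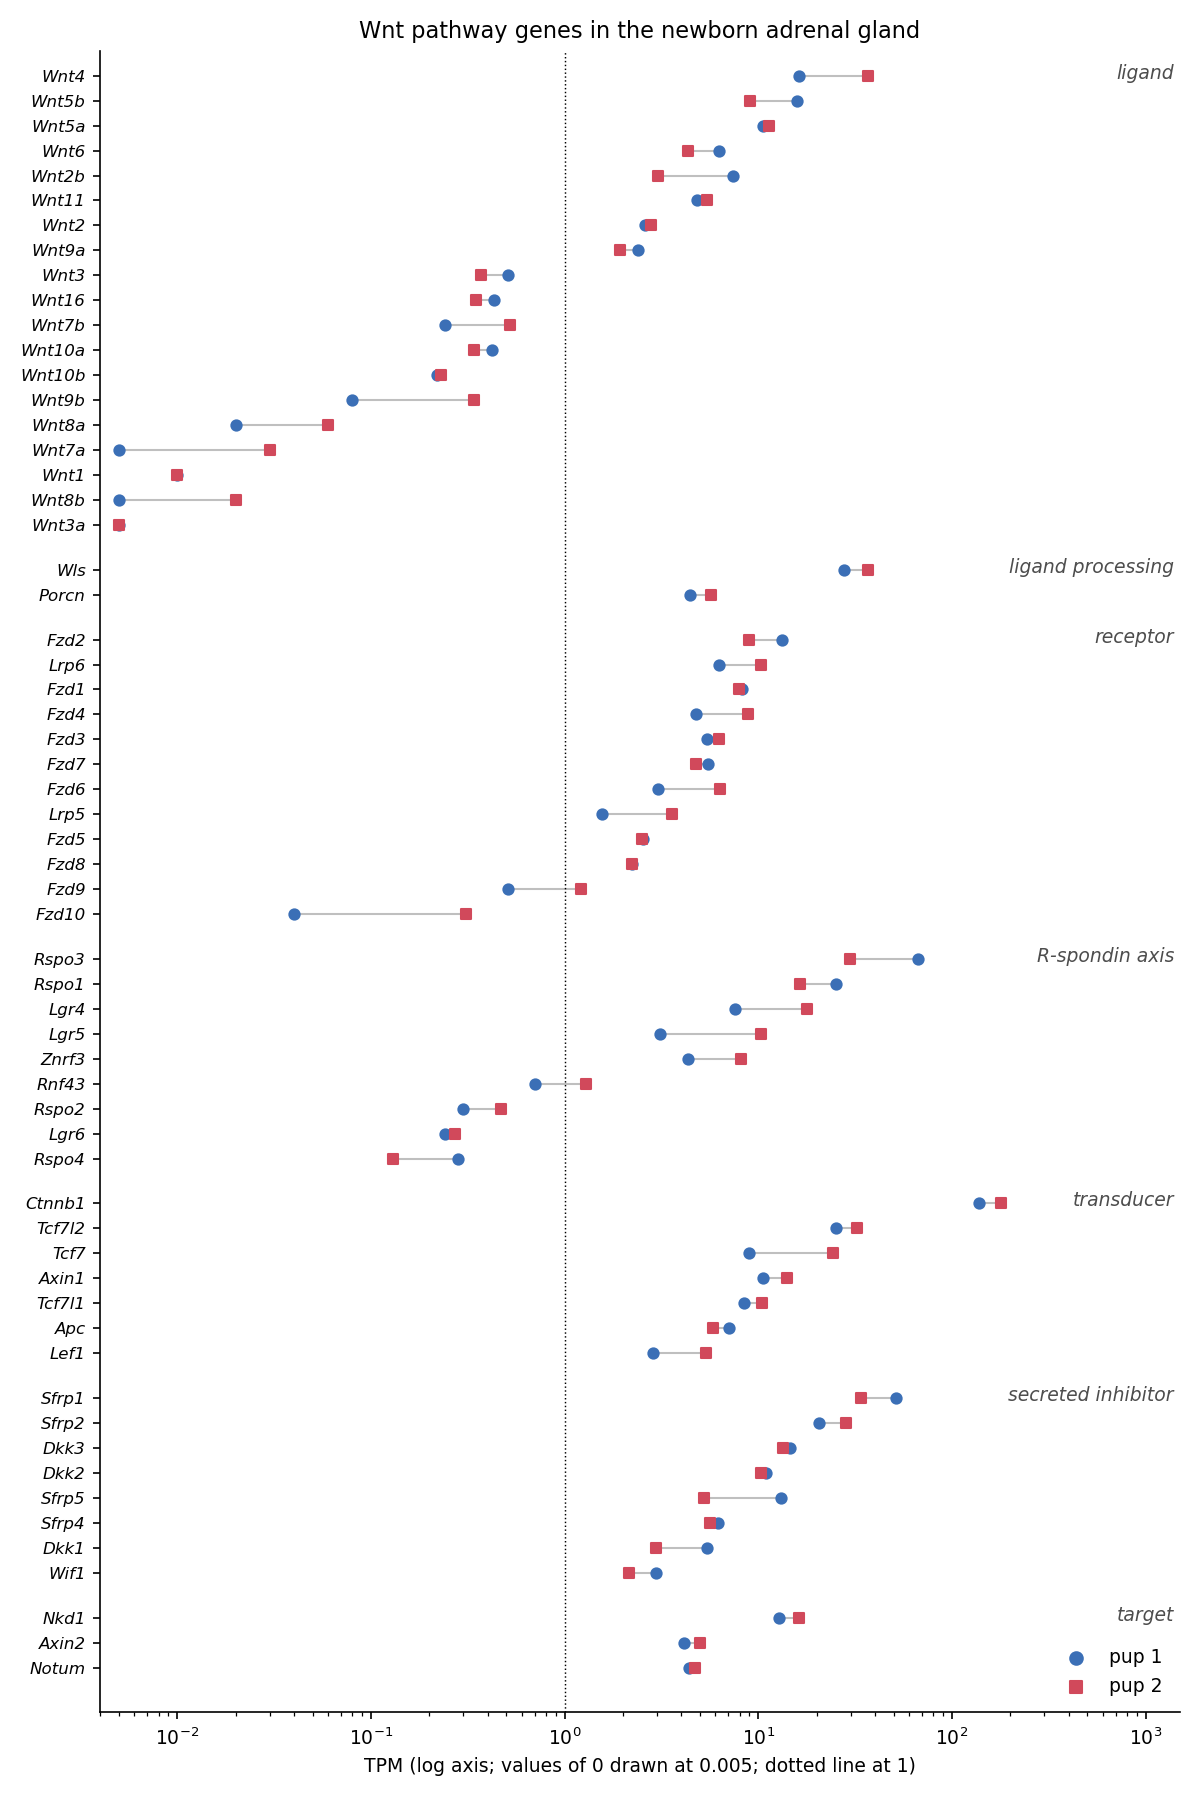
TPM of the 60 Wnt pathway genes on a log axis, with pup 1 as circles and pup 2 as squares, ordered within each role by mean level. Ctnnb1 stands highest at 138.5 and 178.2 TPM, 11 of the 19 ligand genes lie left of the dotted line at TPM 1 in both pups, and the points of Lgr5, Tcf7, Rspo3 and Wnt2b lie far apart.

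Several ligands, R-spondins and inhibitors were over 2-fold higher in pup 1, and Lgr5 and Tcf7 were in pup 2. Of the 55 members that met the count minimum, 9 were over 2-fold higher in pup 1 (16.4%, beside 9.75% of the 18654 genes tested) and 4 in pup 2 (7.27%, beside 6.03%). The first 9 all encode secreted proteins: Wnt2b, Wnt5b, Wnt6, Wnt10a, Rspo1, Rspo3, Rspo4, Dkk1 and Sfrp5. Secreted proteins were also common among the 55, which included 14 ligands, 4 R-spondins and 8 secreted inhibitors. The other 4 were the ligand Wnt9b, the receptors Fzd10 and Lgr5, and the transcription factor Tcf7. Both directions together gave 13 of 55, beside 15.8% of all genes tested and 13.8% of protein-coding ones. The median log2 ratio of the 55 was -0.17, from -1.996 (Wnt10a) to 2.478 (Fzd10), with 36 below 0 and 19 above, whereas the median of all genes tested was 0.00.

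The split depended on the scale. On the ratio of TPM plus 0.1, on which the median of all genes itself sat at 0.38, 3 of the 55 were over 2-fold higher in pup 1 (4.06% of all genes) and 9 in pup 2 (11.4% of all genes). Wnt2b, Rspo3 and Sfrp5 remained over 2-fold higher in pup 1 on that scale, and Wnt9b, Fzd10, Lgr5 and Tcf7 in pup 2, joined by Wnt4, Lgr4, Fzd6, Fzd9 and Lrp5. On TPM the genes past 2-fold were thus not mostly secreted ones. Spike-in counts as the scale moved the median of all genes by 2.57. No member was then over 2-fold higher in pup 1 (0.445% of all genes) and 52 were in pup 2 (96.3% of all genes). Spike-ins took 0.0138% of the counts of pup 1 and 0.00251% of those of pup 2. Directions below are those of TMM-scaled counts, relative to the bulk of genes, and 13 members had the other sign by TPM, among them Ctnnb1, Wnt5a, Wnt2, Wnt11 and the 3 targets.

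**Figure D2:**
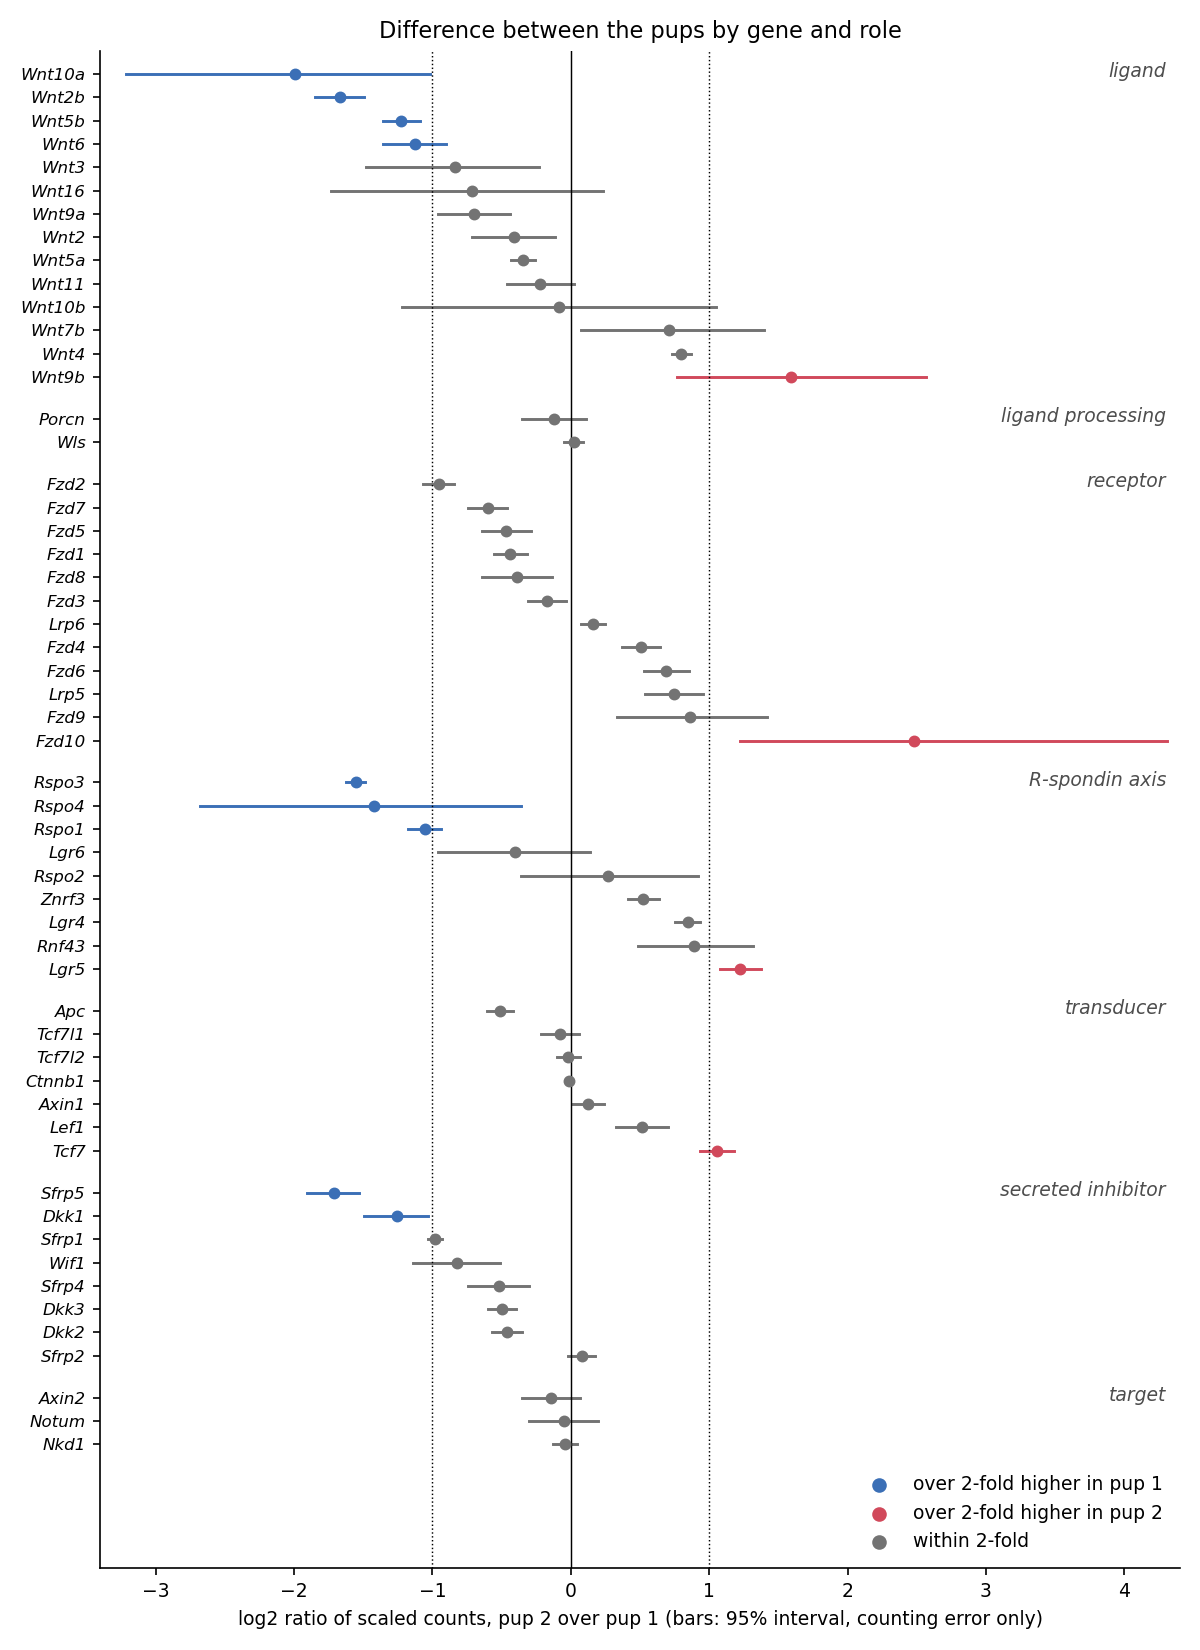
Log2 ratio of TMM-scaled counts, pup 2 over pup 1, for the 55 Wnt pathway genes that met the count minimum of 10, by role, where points are ratios, bars 95% counting intervals and dotted lines mark 2-fold. Blue points to the left are the 9 genes over 2-fold higher in pup 1, red points to the right are Wnt9b, Fzd10, Lgr5 and Tcf7, and the 3 target genes lie near 0.

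Start regions of the members were read for binding motifs. RefSeq start regions were matched for 39 of the 60 genes, not for Rspo3, Wnt10a and Lgr5 among those over 2-fold apart, and the 250 bases before each start were searched on both strands. The TCF/LEF motif, taken as CTTTGAA or its variants CTTTGAT and CTTTGTA and CTTTGTT, was present in 3 of the 39 (7.69%), namely Dkk1, Fzd7 and Wnt11, and in 14.8% of all 32851 windows of that length. The motif of the steroidogenic factor Nr5a1, taken as AAGGTCA, was present in 1 of the 39 (2.56%), Tcf7, and in 4.08% of all windows. The motifs do not overlap one another in letters. A match is a description of letters and not a site in use. No limit was set on the distance to the leading transcript. The Nkd1 window was 6279 bases from that start and lay before Nkd1-202, which had 0 TPM in both pups. The sequences below are from RefSeq on GRCm38.p6 and run 5′ to 3′ on the gene's strand. They show the paired matches of Dkk1, the Tcf7 match, and for contrast the regions of Rspo1 and Sfrp5, which held no match, and capitals mark motif matches. The Dkk1 stretch (chr19:30549588-30549613, minus strand) starts 117 bases before the RefSeq start and lies in the first exon of the GENCODE M21 gene. The Tcf7 stretch (chr11:52282596-52282711, minus strand) is the 116 bases next to the start, outside annotated exons. The Rspo1 (chr4:124986180-124986429, plus strand) and Sfrp5 (chr19:42202253-42202502, minus strand) regions are the full 250 bases.
Dkk1: CTTTGAAatcccatcccggCTTTGTT
Tcf7: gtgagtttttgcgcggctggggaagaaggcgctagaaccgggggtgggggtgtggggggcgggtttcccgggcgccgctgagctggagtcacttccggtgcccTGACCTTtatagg
Rspo1: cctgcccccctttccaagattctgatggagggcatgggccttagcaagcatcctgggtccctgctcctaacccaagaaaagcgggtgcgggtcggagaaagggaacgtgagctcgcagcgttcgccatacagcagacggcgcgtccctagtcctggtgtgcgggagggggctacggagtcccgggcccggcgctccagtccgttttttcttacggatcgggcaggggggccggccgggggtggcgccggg
Sfrp5: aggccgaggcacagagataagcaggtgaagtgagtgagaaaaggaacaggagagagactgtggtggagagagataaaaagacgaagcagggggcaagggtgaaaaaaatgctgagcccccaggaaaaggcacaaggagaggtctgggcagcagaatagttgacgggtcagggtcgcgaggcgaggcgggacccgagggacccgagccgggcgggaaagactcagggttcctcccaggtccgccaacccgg

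Wnt4 led the ligands in both glands. Wnt4 (ENSMUSG00000036856.4, chr4:137277489-137299726), the glomerulosa ligand, stood at 16.2 TPM in pup 1 against 36.7 TPM in pup 2, from 2668 and 4921 counts. Its log2 ratio was 0.80 (interval 0.73 to 0.87), 1.74-fold by scaled counts and 2.27-fold by TPM, so pup 2 was higher on both scales. Wnt4 held 23.7% of the summed ligand TPM in pup 1 and 47.7% in pup 2 (35.7 ± 17.0%, SD, n = 2). In pup 1 Wnt5b was level with it at 23.4%, and in pup 2 no other ligand exceeded 14.8%.

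Wnt5a and Wnt5b, close paralogs best known for β-catenin-independent signalling, followed. Wnt5a had 10.6 TPM in pup 1 against 11.4 TPM in pup 2 (log2 ratio -0.35). Wnt5b had 15.9 TPM in pup 1 against 9.05 TPM in pup 2, from 1432 and 650 counts, a log2 ratio of -1.22 (interval -1.36 to -1.09). The ligand pair thus differed, with Wnt5a near level by TPM and Wnt5b higher in pup 1. Wnt4 over the sum of Wnt5a and Wnt5b was 0.61 by TPM within pup 1 and 1.79 within pup 2, a 2.94-fold difference that no scaling between libraries touches.

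Wnt2b showed the largest ligand difference among those above TPM 1. Wnt2b (ENSMUSG00000027840.4, chr3:104945272-104961921), a canonical ligand, had 1037 counts (7.40 TPM) in pup 1 and 346 counts (3.04 TPM) in pup 2. The log2 ratio was -1.67 (interval -1.85 to -1.49), 3.18-fold by scaled counts and 2.43-fold by TPM. Wnt6 had 501 counts (6.30 TPM) in pup 1 and 243 counts (4.32 TPM) in pup 2, a log2 ratio of -1.13. Wnt6 was past 2-fold by scaled counts and at 1.46-fold by TPM.

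The remaining ligands above TPM 1 varied less. Wnt11, which acts in tissue morphogenesis, stood at 4.81 and 5.42 TPM in pups 1 and 2 (log2 ratio -0.22). Wnt2, a relative of Wnt2b, stood at 2.60 and 2.78 TPM (-0.41), and did not show the excess of Wnt2b in pup 1 by TPM. Wnt9a stood at 2.39 and 1.92 TPM (-0.70).

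The 11 ligand genes below TPM 1 ranged from no count at all to 0.52 TPM. Wnt3a, the ligand most used to activate the pathway in culture, had 0 counts in both libraries, which allows up to 3 counts in each. Wnt1, Wnt7a, Wnt8a and Wnt8b had at most 3 counts in either pup. Wnt9b, an inducer of kidney tubules, had 15 counts (0.08 TPM) in pup 1 and 49 counts (0.34 TPM) in pup 2 (log2 ratio 1.59, interval 0.76 to 2.56). Wnt10a had 39 counts (0.42 TPM) in pup 1 and 10 counts (0.34 TPM) in pup 2, a log2 ratio of -1.996 (interval -3.22 to -1.02) that shrank to 1.24-fold by TPM. Wnt3, Wnt7b, Wnt10b and Wnt16 lay between 0.22 and 0.52 TPM and within 2-fold by scaled counts.

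**Figure D3:**
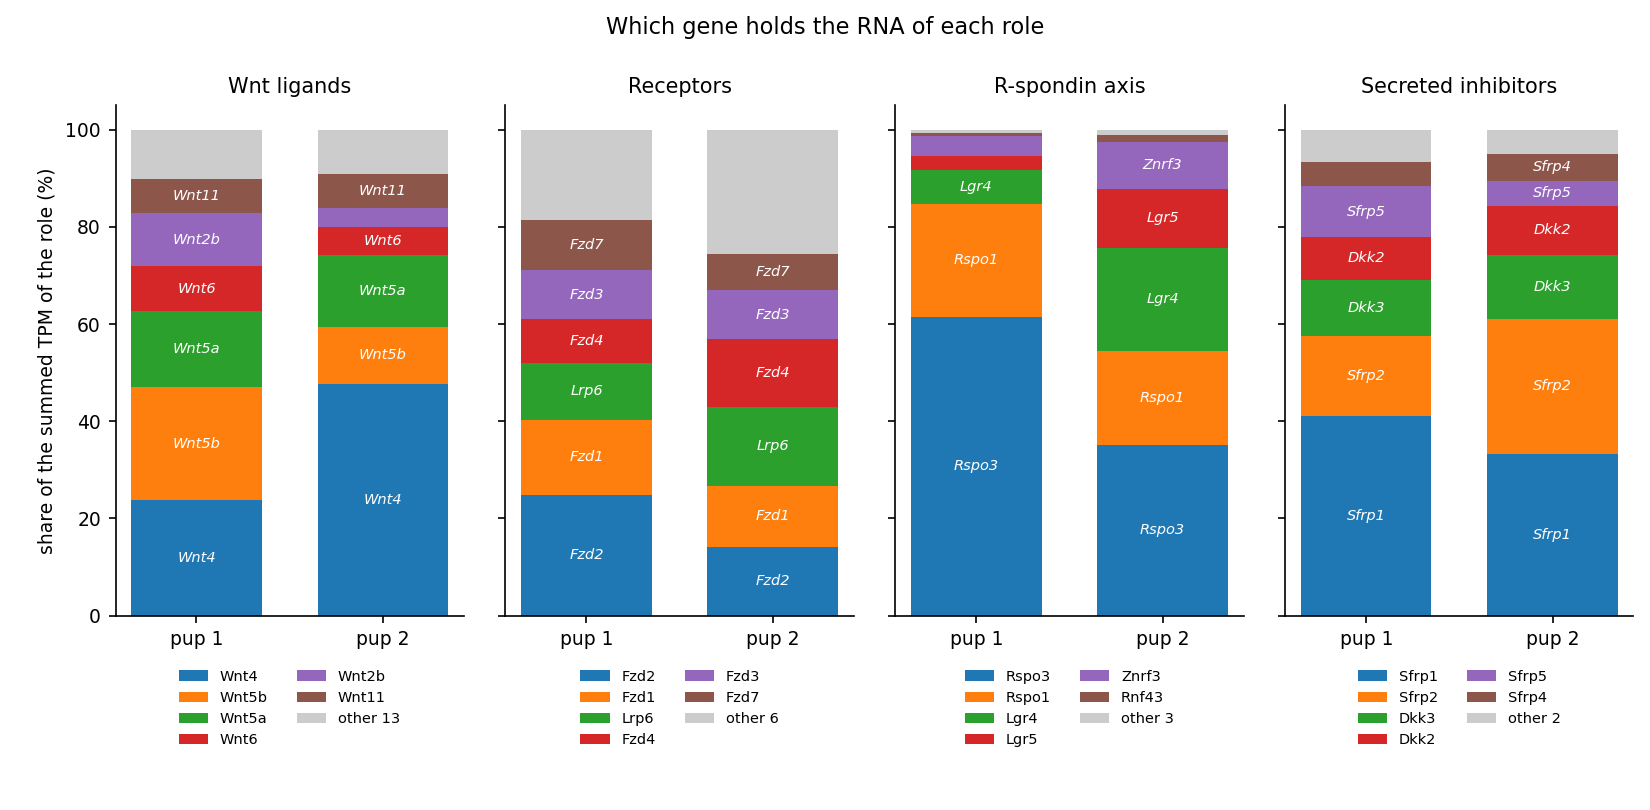
Share of the summed TPM of each role held by its 6 leading genes in each pup (stacked bars, percent; grey, the other genes of that role). Wnt4 grows from 23.7% of ligand RNA in pup 1 to 47.7% in pup 2, and Rspo3 shrinks from 61.5% to 35.1% of the R-spondin axis.

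The 2 ligand processing genes were near level between the glands by scaled counts. Wls, the carrier that brings Wnt proteins to the surface, had 27.8 TPM in pup 1 against 36.8 TPM in pup 2, and its log2 ratio was 0.02 (interval -0.05 to 0.09). Porcn, the acyltransferase that attaches the lipid, had 4.44 and 5.72 TPM and a log2 ratio of -0.12 (interval -0.36 to 0.11). Both log2 intervals include 0, which does not show that the pups were alike. By TPM both genes were higher in pup 2, Wls by 1.32-fold and Porcn by 1.29-fold. Wls held 86.3% and 86.6% of the pair.

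No single receptor dominated. Of the 12 receptor genes 10 were above TPM 1 in both pups, their ratios divided 6 below 0 and 6 above, and the median was -0.01. Fzd2 led in pup 1 with 13.3 TPM, 24.9% of receptor RNA, against 8.95 TPM and 14.2% in pup 2. Its log2 ratio of -0.96 (interval -1.07 to -0.85) lay just inside 2-fold. Lrp6, the co-receptor, led in pup 2 with 10.3 TPM, 16.3% of receptor RNA, against 6.26 TPM and 11.7% in pup 1, with a log2 ratio of 0.16.

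The Frizzled genes parted into those higher in either pup. Fzd1 had 8.26 and 7.97 TPM in pups 1 and 2 (log2 ratio -0.44), and Fzd7 had 5.52 and 4.75 TPM (-0.60). Fzd5 had 2.54 and 2.51 TPM (-0.47), Fzd8 had 2.24 and 2.23 TPM (-0.39), and Fzd3 had 5.41 and 6.27 TPM (-0.17). By TPM these 5 differed between the pups by at most 1.16-fold. Higher in pup 2 on both scales were Fzd4, the norrin and endothelial receptor, with 4.78 and 8.86 TPM (0.51), and Fzd6, a receptor of planar polarity, with 3.02 and 6.35 TPM (0.69). Lrp5, the second co-receptor, stood at 1.56 TPM in pup 1 against 3.58 TPM in pup 2 (0.74), so Lrp6 was 4.01 times Lrp5 in pup 1 and 2.87 times in pup 2.

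Fzd9 and Fzd10 were scarce. Fzd9 had 45 counts (0.51 TPM) in pup 1 and 87 counts (1.21 TPM) in pup 2, a log2 ratio of 0.86. Fzd10 had 5 counts (0.04 TPM) in pup 1 and 32 counts (0.31 TPM) in pup 2, which made the log2 ratio 2.48 (interval 1.22 to 4.31). The Fzd10 value rests on few reads and stayed below TPM 1 in both pups.

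The R-spondin axis parted by function, with Rspo1 and Rspo3 higher in pup 1 and Lgr4, Lgr5, Znrf3 and Rnf43 in pup 2. Rspo3 (ENSMUSG00000019880.9, chr10:29452416-29535867), the capsular signal, had 6166 counts (66.6 TPM) in pup 1 and 2227 counts (29.6 TPM) in pup 2. The log2 ratio was -1.55 (interval -1.62 to -1.48), 2.94-fold by scaled counts and 2.25-fold by TPM. Rspo1 (ENSMUSG00000028871.7, chr4:124986430-125009099), known for its part with Wnt4 in gonad development, had 1669 counts (25.1 TPM) in pup 1 and 851 counts (16.4 TPM) in pup 2. Its log2 ratio was -1.06 (interval -1.18 to -0.94), just past 2-fold by scaled counts and 1.53-fold by TPM. Rspo1 and Rspo3 made up nearly all R-spondin RNA, with Rspo3 holding 72.1% in pup 1 and 63.5% in pup 2. Rspo4 had 26 and 10 counts (0.28 and 0.13 TPM), a log2 ratio of -1.42, and Rspo2 had 0.30 and 0.47 TPM (0.27).

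Lgr4 and Lgr5 ran the other way, and Lgr6 did not. Lgr5 (ENSMUSG00000020140.11, chr10:115450311-115587780), an R-spondin receptor known as a stem cell marker of several epithelia, had 533 counts (3.10 TPM) in pup 1 and 1320 counts (10.3 TPM) in pup 2. The log2 ratio was 1.22 (interval 1.08 to 1.37), 2.33-fold by scaled counts and 3.31-fold by TPM. Lgr4, the broadly expressed relative, had 7.59 TPM in pup 1 against 17.8 TPM in pup 2 at a log2 ratio of 0.84 (interval 0.75 to 0.94). Lgr6 stayed at 0.24 and 0.27 TPM, with a log2 ratio of -0.40 whose interval (-0.96 to 0.14) includes 0. The ubiquitin ligase gene Znrf3 had 4.33 and 8.11 TPM (0.53), and Rnf43 had 0.70 and 1.29 TPM (0.89). Of the 5 Lgr and ligase genes, 4 were higher in pup 2 by scaled counts.

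Ratios taken inside 1 library do not depend on the scale between libraries, and these were chosen after the values were seen. Rspo1 and Rspo3 summed over Lgr4 and Lgr5 gave 8.58 by TPM in pup 1 and 1.64 in pup 2, 5.24-fold apart. Over Znrf3 and Rnf43 the same sum gave 18.2 and 4.90, 3.72-fold apart. Rspo3 over Wnt4 gave 4.12 in pup 1 and 0.81 in pup 2, so Rspo3 RNA exceeded Wnt4 RNA in pup 1 and not in pup 2. In log2 terms this last difference was -2.35. TPM, FPKM and TMM-scaled CPM give this same value by construction, as Rspo3 and Wnt4 each have 1 transcript.

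**Figure D4:**
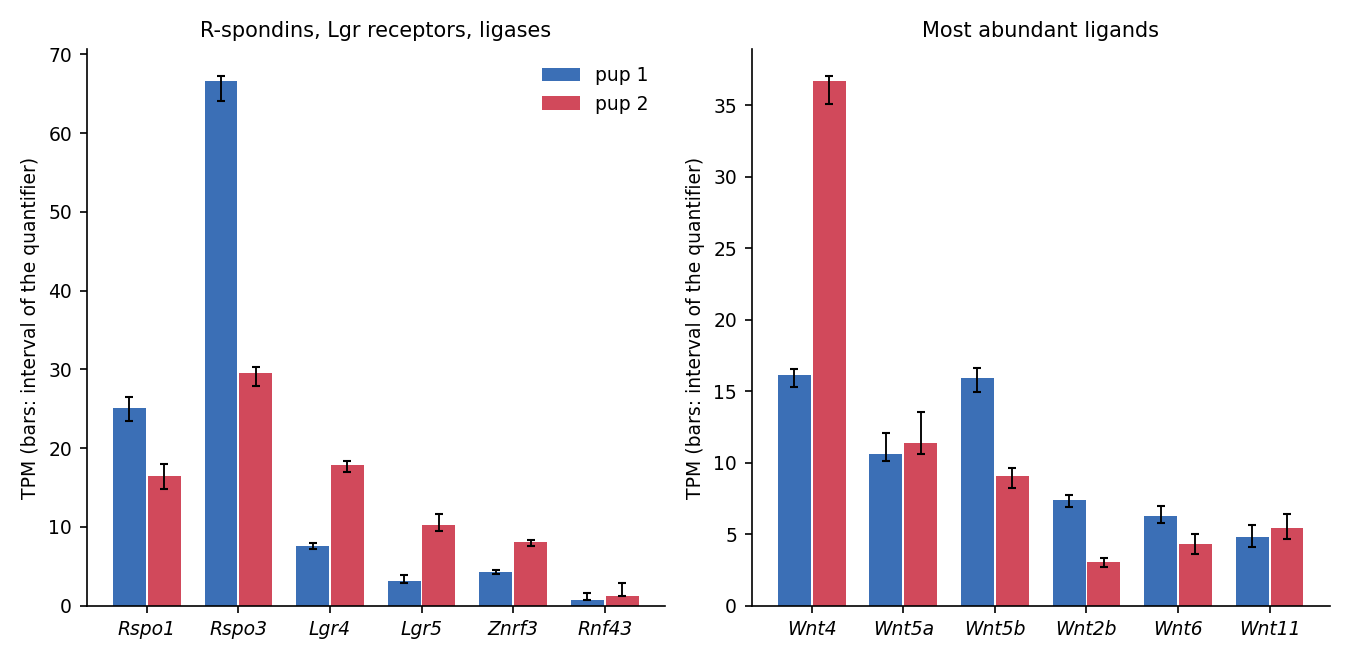
TPM of R-spondins, Lgr receptors and ligases (left) and of the 6 most abundant ligands (right) in pup 1 and pup 2, with the quantifier's TPM interval as error bars. Rspo1 and Rspo3 are taller in pup 1 and Lgr4, Lgr5 and Znrf3 in pup 2, and Wnt4 rises above Wnt5b in pup 2.

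Of the 7 intracellular transducers Tcf7 alone was over 2-fold apart. Smaller ratios with intervals that exclude 0 were below 0 for Apc and above 0 for Lef1 and Axin1. Ctnnb1 (ENSMUSG00000006932.12, chr9:120929216-120960507) had 18554 counts (138.5 TPM) in pup 1 and 19482 counts (178.2 TPM) in pup 2, and its mean level lay at percentile 96.4 of protein-coding genes. Its log2 ratio was -0.01 (interval -0.04 to 0.01), and it held 68.7% and 65.9% of transducer RNA. The scaffold gene Axin1 had 10.6 and 14.1 TPM (log2 ratio 0.13, interval 0.01 to 0.24). The scaffold Apc, whose loss activates the pathway, had 7.03 and 5.81 TPM (-0.51). Neither scaffold was over 2-fold apart.

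Among the DNA-binding partners of β-catenin, Tcf7l2 was the most abundant. Tcf7l2 had 25.3 TPM in pup 1 against 32.2 TPM in pup 2 (log2 ratio -0.02), and Tcf7l1, known mainly as a repressor, had 8.47 and 10.5 TPM (-0.08). Tcf7 (ENSMUSG00000000782.11, chr11:52252371-52283014), which encodes TCF1, had 803 counts (8.99 TPM) in pup 1 and 1773 counts (24.4 TPM) in pup 2. Its log2 ratio was 1.06 (interval 0.94 to 1.18), 2.08-fold by scaled counts and 2.71-fold by TPM, and Lef1 followed in the same direction with 2.87 and 5.35 TPM (0.51). Thus Tcf7 and Lef1 were higher in pup 2 while Tcf7l1 and Tcf7l2 had intervals that include 0.

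Secreted inhibitors were abundant, with 125 TPM summed over 8 genes in pup 1 and 102 TPM in pup 2, against 68.1 and 76.9 TPM of ligands. Their median log2 ratio was -0.67, with 7 of 8 below 0 (49.8% of all genes tested were below 0). By TPM the same 7 were higher in pup 1, and 6 of them by less than 2-fold. The direction of the inhibitor sum depends on the genes listed. A further 14 antagonist genes, described below, summed to 67.1 TPM in pup 1 and 106.0 TPM in pup 2. Of that sum Frzb had 13.3 and 65.5 TPM, while 10 of the 12 tested were below 0. Sfrp1, a Frizzled-like decoy, led with 51.4 TPM in pup 1 against 34.0 TPM in pup 2, 41.1% and 33.3% of the role. Its log2 ratio was -0.98 (interval -1.03 to -0.93), and a setting chosen after seeing the data that removed trends of length and GC content placed it past 2-fold. Sfrp2, the next decoy, had 20.5 and 28.3 TPM and was the 1 inhibitor above 0, at 0.08 (interval -0.02 to 0.18).

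Sfrp5 and Dkk1 were over 2-fold apart. Sfrp5 (ENSMUSG00000018822.7, chr19:42197971-42202252) had 953 counts (13.1 TPM) in pup 1 and 308 counts (5.22 TPM) in pup 2. The log2 ratio was -1.71 (interval -1.90 to -1.53), 3.28-fold by scaled counts and 2.51-fold by TPM. Dkk1, which blocks Lrp5 and Lrp6, had 510 counts (5.43 TPM) in pup 1 and 226 counts (2.96 TPM) in pup 2, a log2 ratio of -1.26 (interval -1.49 to -1.03). Pup 1 was higher for both, Dkk1 by 1.83-fold on the TPM scale.

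The other inhibitors lay within 2-fold. Dkk3, a divergent Dickkopf, had 14.6 and 13.5 TPM (log2 ratio -0.50), and Dkk2 had 10.9 and 10.4 TPM (-0.46). Sfrp4 had 6.18 and 5.62 TPM (-0.52). Wif1, which binds Wnt proteins directly, had 2.97 TPM in pup 1 against 2.14 TPM in pup 2 (-0.82).

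The 3 genes classed here as feedback targets were near level between the glands by scaled counts. Nkd1, an inhibitor of Dishevelled, had 12.8 and 16.2 TPM in pups 1 and 2, a log2 ratio of -0.04 (interval -0.13 to 0.04). Axin2, the most widely used readout of canonical signalling, had 4.11 and 4.97 TPM, a log2 ratio of -0.14 (interval -0.35 to 0.07). Notum, a secreted enzyme that removes the lipid from Wnt proteins, had 4.36 and 4.69 TPM, a log2 ratio of -0.05 (interval -0.30 to 0.20). All 3 intervals include 0, and by TPM the 3 were slightly higher in pup 2, while Rspo3 and Lgr5 stood apart in opposite directions in the same libraries. The intervals do not show that the pups were alike, and 3 genes do not stand for the output of the pathway. Of 10 further genes reported as targets, 5 were below 0 and 5 above. Sp5 was among those above, with 1.93 and 3.57 TPM (log2 ratio 0.50, interval 0.20 to 0.80).

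Transcript use was mostly shared. Of 32 members with a mean TPM of at least 5, 19 had over 1 annotated transcript, and 17 of these had the same leading transcript in both pups by deposited isoform percent. Tcf7-201 held 78.5% and 79.4% of Tcf7 TPM, so the higher Tcf7 of pup 2 came with the same mix. Ctnnb1-214 held 58.0% and 55.7%, and Ctnnb1-201 31.7% and 38.5%. Lgr5-201 held 85.8% in pup 1 and 77.9% in pup 2, and Rspo3 has 1 transcript. Wnt5b-203 held 89.6% in pup 1 and 62.5% in pup 2, or 80.7% and 52.9% from posterior mean TPM. In pup 2 its TPM interval (1.78 to 6.96) overlapped that of Wnt5b-204 (0.16 to 4.45). For Wnt11 the leading transcript in both, Wnt11-202 with 55.4% and 51.8%, is annotated as subject to nonsense-mediated decay.

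Tcf7l2 and Porcn were the 2 whose leading transcript differed. Tcf7l2-209, which codes for 459 amino acids, held 32.7% in pup 1 and 29.2% in pup 2, while Tcf7l2-206, a retained intron, held 27.4% and 34.2%. Porcn-201 held 43.5% and 25.6%, and Porcn-203 26.9% and 42.7%. In each pup the quantifier's TPM intervals of the leading pair overlapped, so neither order is resolved.

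The rest of the pathway was described by 63 other genes in 5 lists, of which 55 reached TPM 1 in both pups. Their median log2 ratio was -0.19 over 61 tested. Of these 42 were below 0 (68.9%, beside 49.8% of all genes tested) and 19 above. In each pup 3 were over 2-fold higher (4.92%), beside 9.75% of all genes tested for pup 1 and 6.03% for pup 2. Among 15 co-receptor and planar polarity genes none was over 2-fold apart. Gpc3, a glypican, led them with 487.9 TPM in pup 1 against 368.8 TPM in pup 2, and Gpc4 came next with 26.7 and 58.4 TPM. The 13 cytoplasmic and 11 nuclear genes also lay within 2-fold. The kinase gene Csnk1a1 led the former with 89.1 and 140.5 TPM, ahead of Csnk1d with 35.5 and 57.5 TPM. Aes, a Groucho-related co-repressor, led the latter with 282.8 and 438.5 TPM, ahead of Ctnnbip1, an inhibitor of β-catenin and Tcf binding, with 29.5 and 43.5 TPM.

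Antagonists outside the 60 genes moved both ways. Frzb, a further decoy receptor, had 13.3 TPM in pup 1 against 65.5 TPM in pup 2 (log2 ratio 1.80), opposite to Sfrp5 and Sfrp1. Sostdc1, an inhibitor of Bmp and Wnt signals, had 24.2 and 9.51 TPM (-1.73). Kremen2 (-1.58) and Draxin (-1.07) were also over 2-fold higher in pup 1, both below TPM 1. Of 10 genes reported as targets, Tnfrsf19 (7.58 and 23.3 TPM, 1.23) and Fgf9 (4.20 and 11.5 TPM, 1.09) were over 2-fold higher in pup 2. Id2 and Ccnd1 were the most abundant of them, with 318.6 and 666.7 TPM and with 102.0 and 77.5 TPM, each within 2-fold by scaled counts.

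Markers of the adrenal gland, 10 steroidogenic cortex and 9 chromaffin genes, were all above TPM 1 in both pups. The 6 capsule genes were all higher in pup 1 (median log2 ratio -0.81), and their summed level was 239.8 TPM in pup 1 against 154.1 TPM in pup 2. Of the 7 glomerulosa genes 6 had the larger value in pup 2 (median 0.65), with sums of 103.2 and 205.6 TPM. Rspo3 (-1.55) lay below every capsule gene, of which Tcf21 was lowest at -1.20. Wnt4 (0.80) lay within the wide range of the glomerulosa genes, from -0.27 to 1.85. The 10 cortex genes were all higher in pup 2 (median 1.22), from 0.63 to 1.52, a range that also holds Wnt4. The part of these differences in the Wnt results was not tested.

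Other lists moved beside the genes higher in pup 1. Stroma genes were higher in pup 1 for 7 of 8 (median -0.62, 2616 and 2250 TPM summed), sympathetic neuron genes for 8 of 8 (-2.02, 1276 and 405.2 TPM) and Schwann and glia genes for 7 of 7 (-0.89, 177.7 and 93.4 TPM). Stomach and oesophagus genes were over 2-fold higher in pup 1 for 8 of 8 tested of 9 (median -4.79), and summed to 150.2 TPM in pup 1 against 6.59 TPM in pup 2. Leukocyte genes were higher in pup 1 for 5 of 7, 3 of them over 2-fold (median -0.61, 1144 and 700.6 TPM). Of the stomach genes Gkn1 had 248 counts in pup 1 and 0 in pup 2. Liver genes were higher in pup 1 for 8 of 8 (-0.75), and the 5 mesothelium genes were near level at -0.08. Whether Wnt2b, Wnt5b, Wnt6, Rspo1, Rspo3, Dkk1 and Sfrp5 came in part from such tissue was not tested.

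Most kidney genes tested were higher in pup 2, as were the members Wnt9b, Fzd10, Wnt7b, Wnt4 and Lgr5. These members are among the 19 of 55 above 0, while 36 were below 0, such as Wnt11, Rspo1 and Rspo3. The 10 cortex genes were also all higher in pup 2 (median 1.22), so the shared direction does not single out kidney. Of 12 kidney genes 10 were tested, with a median log2 ratio of 2.58, 7 over 2-fold higher in pup 2 and 2 in pup 1. The list summed to 19.6 TPM in pup 1 against 46.6 TPM in pup 2. Most of the sum in pup 1 was Wt1, the tested gene within 2-fold, with 15.5 and 19.8 TPM (-0.08). The nephron progenitor genes Lhx1 (6 and 318 counts), Six2 (23 and 206) and Pax2 (34 and 376) were among the 7 higher in pup 2. The 2 higher in pup 1 were the tubule genes Slc12a1 (49 and 2 counts) and Miox (36 and 18), whereas the collecting duct gene Aqp2 (49 and 151) was higher in pup 2. Umod with 0 and 3 counts and Nphs1 with 2 and 5, the 2 untested genes, were near 0. Skeletal muscle genes were over 2-fold higher in pup 2 for 6 of 6 (1.78, 56.2 and 231.5 TPM), and endothelial genes higher for 6 of 8 (0.67, 243.8 and 398.6 TPM). Of the 6 fat genes 5 were tested (median 0.63), with 2 over 2-fold higher in pup 2, Adipoq (5 and 584 counts) and Plin1, and 1 in pup 1. The part of kidney or other neighbouring tissue in the level of Wnt4, Wnt9b, Fzd10 and Lgr5 was not tested.

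**Figure D5:**
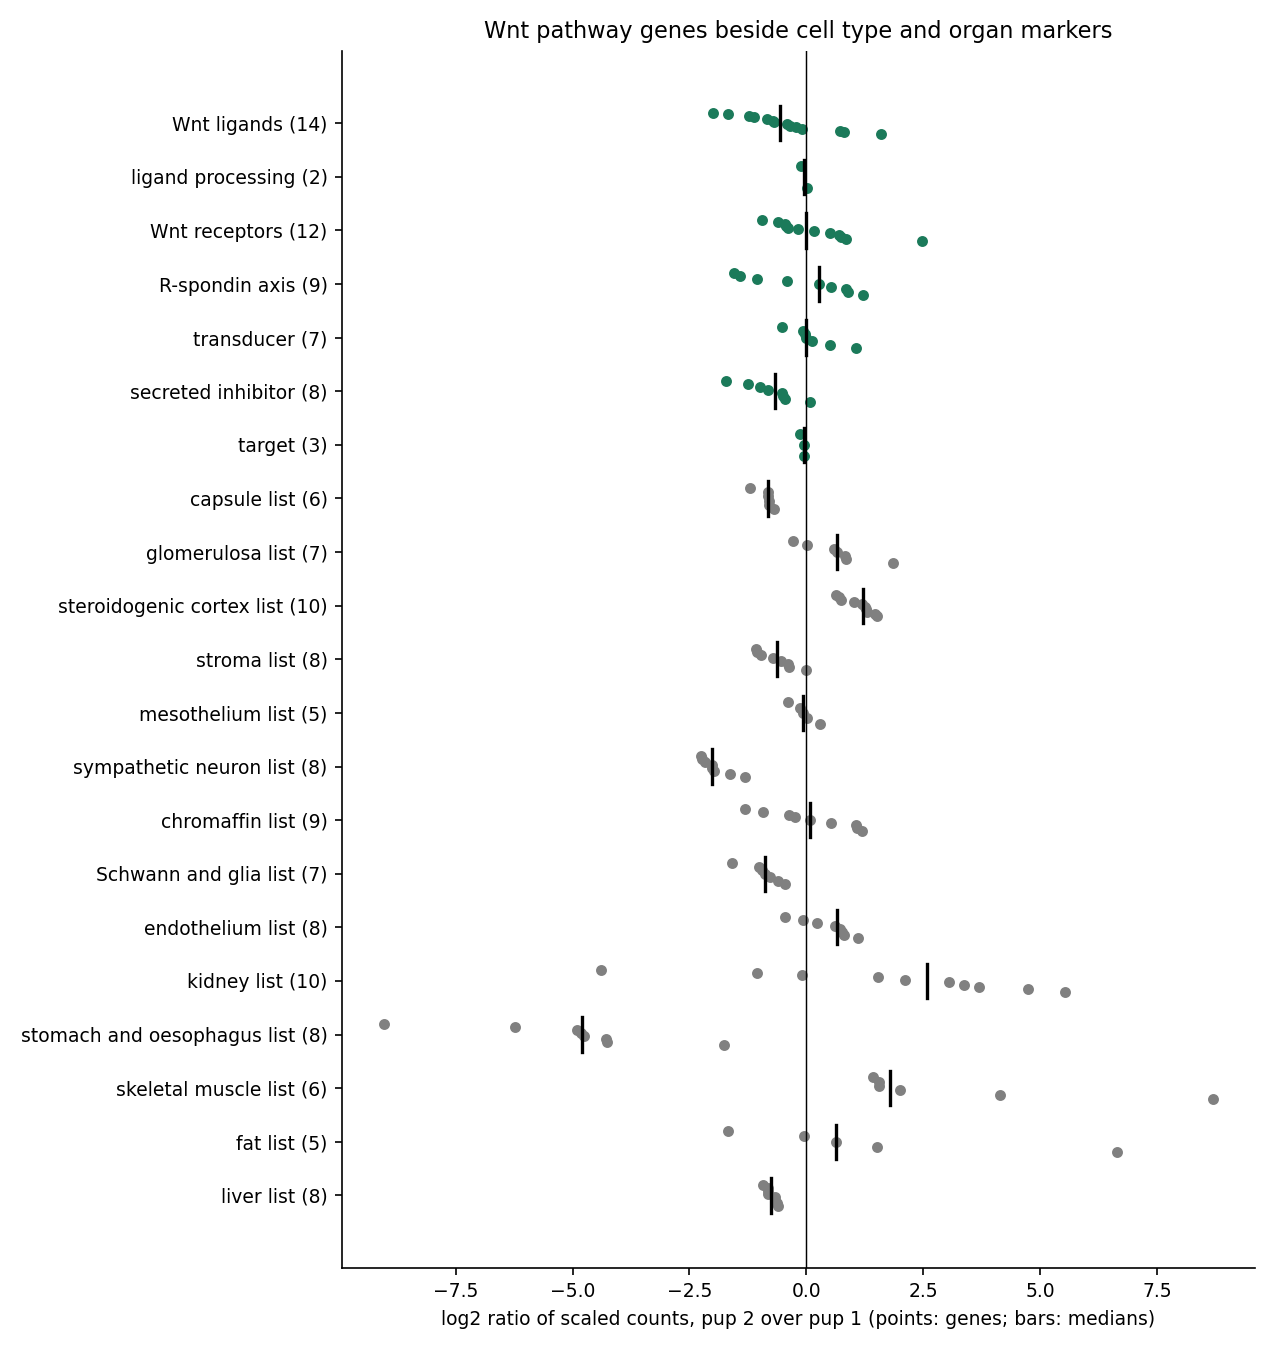
Log2 ratio of TMM-scaled counts, pup 2 over pup 1, for each tested gene of the Wnt roles (green) and of the cell type and organ lists (grey), with bars at medians and the number of genes in brackets. The secreted inhibitors lie left of 0 with the capsule and stroma lists, the stomach and oesophagus list lies farthest left at a median of -4.79, and the kidney list lies right at 2.58.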

How the data were processed

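Total RNA-seq was available for 2 libraries of newborn adrenal gland, 1 per pup, which form 1 group per the labels. For each the authors deposited gene and transcript tables. The columns, per the file headers, are expected counts (reads estimated per gene, which need not be whole), TPM, FPKM, posterior means, TPM interval bounds (treated as scores) and, for transcripts, isoform percent. The deposited text notes name mm10 and GENCODE M4. For the aligner, the quantifier and the strand handling nothing is given in the sources used. Near-identical genes may share reads.

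Of 69691 gene rows, 97 spike-in and 26248 number-named rows, at most 0.0138% of counts each, were left out. GENCODE M21, of that build, gave symbols, coordinates and transcript types. Expected counts were rounded and scaled by TMM in edgeR 4.0.16 (R 4.3.3). Ratios are log2 of scaled counts with 0.5 added, and printed folds omit the 0.5. Intervals are exact binomial, 95%, and cover counting error only, as no molecular identifiers are recorded and reads are not independent molecules. A count of 0 allows up to 3. The scripts ran under scipy 1.17.1, pandas 2.3.3, numpy 2.4.6 and python 3.11.15 and were tested on simulated data.

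The members, the gene lists and the alternatives were chosen with earlier results of these data known. Values are given for members with a mean TPM of at least 1 or over 2-fold apart, and for the 2 most abundant and any over 2-fold apart of each further Wnt list. Alternatives were DESeq2 1.42.0 size factors, total counts, spike-in counts, TPM plus 0.1, posterior means, FPKM, other minimums and pseudocounts, a length trend, and each pup alone.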

Additional observations from a re-analysis of the deposited data

How the results depend on the processing

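The 9 and 4 members over 2-fold higher in pup 1 and pup 2 were the same genes with DESeq2 size factors, posterior mean counts, a pseudocount of 2 and a removed length trend. Total counts gave 8 and 5 (8.21% and 7.40% of all genes), losing Rspo1 and gaining Rnf43. Removal of a length and GC trend, chosen after seeing the data, gave 10 and 4 (8.68% and 6.43% of all genes). A count minimum of 100 gave 7 and 2 of 44 members (6.35% and 2.78% of all genes), losing Rspo4, Wnt10a, Fzd10 and Wnt9b. No minimum gave 9 and 7 of 59 members, beside 14.6% and 15.6% of all genes. In that setting the share of members higher in pup 1 lay near that of all genes. On TPM plus 0.1 the counts were 3 and 9 and the median ratio 0.12.

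Spike-in counts gave a median of 2.40, with 0 members in pup 1 and 52 in pup 2, beside 0.445% and 96.3% of all genes. They placed all 55 ratios above 0 through 1 shift of all genes by 2.57. The sign changed for 36 members, among them the 9 that were over 2-fold higher in pup 1: Sfrp5 to 0.86, Rspo3 to 1.02, Dkk1 to 1.31, Wnt10a to 0.57, Wnt2b to 0.90, Rspo1 to 1.51, Wnt5b to 1.34, Rspo4 to 1.15 and Wnt6 to 1.44. The cause of the shift was not tested, and the spike-ins held 5717 and 1022 counts.

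With either pup left out, members at TPM 1 or more numbered 43 to 45. Other TPM minimums and units gave 41 to 45. Shares of leading genes in single pups ran from 23.7% to 47.7% (Wnt4), 14.2% to 24.9% (Fzd2), 35.1% to 61.5% (Rspo3), 65.9% to 68.7% (Ctnnb1), 60.1% to 62.6% (Nkd1), 33.3% to 41.1% (Sfrp1) and 86.3% to 86.6% (Wls). TMM-scaled CPM, which is not per length, gave 69.6% for Ctnnb1, 77.2% for Nkd1, 51.1% for Sfrp1, 92.4% for Wls and 74.5% for Rspo3 of R-spondins, and posterior mean TPM gave 86.0% for Wls. With 2 libraries, ratios of genes under 50 counts carry wide intervals.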
